A study of Mus musculus with 12 samples.

Results

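The genes described here are those of de novo lipogenesis, the route by which liver turns sugar carbon into fatty acids, with the factors that regulate it. They were 10 genes taken by name (Fasn, Acaca, Acacb, Acly, Me1, Srebf1, Mlxipl, Pklr, Pnpla3 and Thrsp), with earlier results of these data known. Counts of them set against all genes are therefore descriptions. Each was read by 1 probe set of the array, out of 23185 genes with a name. They were measured in the livers of 12 mice killed 5 days after birth, 1 Affymetrix whole-transcript array a mouse and 3 arrays a group. In 1 arm of the study, livers with a liver-specific deletion of Lkb1 (LKB1 KO, Cre positive) were compared with livers of mice lacking Cre (LKB1 WT). A further arm set livers in which the Notch pathway was inactivated by loss of RbpJk (RbpJk KO, Cre positive) against Cre-negative livers of its own (RbpJk WT). Each control is a mouse without Cre, so loss of the gene and presence of Cre cannot be told apart, and the promoter that drove Cre in these mice is not given in the sources used here. Lkb1 (gene symbol Stk11) is a kinase that switches on the AMP-activated kinase (Ampk), and RbpJk (gene symbol Rbpj) is the DNA-binding protein through which Notch receptors act.

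In this route, citrate leaves the mitochondrion and is split by ATP citrate lyase (Acly) into acetyl-CoA. Acetyl-CoA carboxylase turns acetyl-CoA into malonyl-CoA, with Acaca acting in the cytosol and Acacb at the mitochondrial surface, where malonyl-CoA restrains the entry of fatty acids. Fatty acid synthase (Fasn) then builds palmitate, using NADPH that malic enzyme (Me1) helps to supply, and Ampk phosphorylates and inhibits both carboxylases. Srebf1 encodes the factor that carries the insulin signal to these genes, Mlxipl (also called ChREBP) the factor that carries the carbohydrate signal, and Pklr the liver pyruvate kinase, a classical ChREBP target. Pnpla3 is a lipid droplet protein induced by both factors, and Thrsp (Spot 14) a nuclear protein of lipogenic tissues that responds to thyroid hormone. Suckling mice live on fat-rich milk, and hepatic lipogenesis is low until weaning.

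All values are log2 expression as deposited, changes are knockout minus control with the SE of the limma model, and arrays of a group are given in the order 1, 2, 3. A gene counted as risen or fallen at an adjusted p (Benjamini-Hochberg over 23185 genes) under 0.05. The targeted genes changed by -0.80 for Stk11 in LKB1 KO livers (adjusted p = 0.0224) and by -0.73 for Rbpj in RbpJk KO livers (adjusted p = 0.0724). The labels call all mice male, but Xist, the RNA of the inactive X chromosome, was high (10.6 or more) on all 3 LKB1 WT arrays, on LKB1 KO 3 and on RbpJk WT 1 and 3, and low (5.09 or less) on the other 6. The Y-chromosome gene Eif2s3y went the other way, at 2.94 or less on the high-Xist arrays and 7.23 or more elsewhere. By these RNAs the high-Xist arrays read as female, against their labels. Knockout and this apparent sex, called Xist class below, therefore nearly coincided in both arms. Values within 1 Xist class or with that class in the model are given after the 10 genes and after the pathway lists. RbpJk WT 1 also carried the pancreatic transcript Ctrb1 at 10.4, against at most 6.75 elsewhere. Hepatocyte markers summed to between 15.1 and 15.2 on every array, with 0 of 7 past the threshold in either knockout. Within that range the LKB1 KO sums (15.09 to 15.10) lay below the LKB1 WT sums (15.16 to 15.20). There 0 of the 7 markers had a change above 0, while the sums of the RbpJk groups overlapped. Of 8 adipocyte markers, the adipocyte hormones Adipoq (at most 3.56) and Lep (at most 3.48) and the brown fat protein Ucp1 (at most 3.27) lay below every array median, while Plin1 reached 5.47, Lipe 5.73 and Fabp4 9.89. In whole liver, fewer cells of a type and less RNA per cell cannot be told apart.

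Promoter sequences of 4 of these genes are printed because Fasn, Acly and Pnpla3 had knockout arrays above their controls in both arms while Pklr followed another pattern. They are RefSeq sequences of mouse build GRCm38.p6 from 250 bases before to 50 after an annotated start, written 5′ to 3′ along the gene. Capitals mark the letters of the CCAAT box (CCAAT or, on the other strand, ATTGG), to which NF-Y binds, of the carbohydrate response element of ChREBP (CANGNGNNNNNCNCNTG) and of the TATA box (TATAAA). The windows are chr11:120824498-120824797 (minus strand) for Fasn, chr11:100527951-100528250 (minus strand) for Acly, chr15:84167566-84167865 (plus strand) for Pnpla3 and chr3:89136373-89136672 (plus strand) for Pklr.
Fasn: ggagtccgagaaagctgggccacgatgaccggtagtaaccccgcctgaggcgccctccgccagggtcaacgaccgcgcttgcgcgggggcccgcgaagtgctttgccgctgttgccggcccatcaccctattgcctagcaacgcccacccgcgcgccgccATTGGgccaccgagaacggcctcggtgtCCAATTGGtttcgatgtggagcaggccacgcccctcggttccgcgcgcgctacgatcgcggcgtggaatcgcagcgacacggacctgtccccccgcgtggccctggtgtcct
Acly: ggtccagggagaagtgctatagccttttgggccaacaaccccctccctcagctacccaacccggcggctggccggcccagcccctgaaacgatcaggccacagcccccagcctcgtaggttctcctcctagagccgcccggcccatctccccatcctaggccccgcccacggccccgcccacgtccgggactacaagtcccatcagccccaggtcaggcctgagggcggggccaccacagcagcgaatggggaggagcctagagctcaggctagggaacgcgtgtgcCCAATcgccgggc
Pnpla3: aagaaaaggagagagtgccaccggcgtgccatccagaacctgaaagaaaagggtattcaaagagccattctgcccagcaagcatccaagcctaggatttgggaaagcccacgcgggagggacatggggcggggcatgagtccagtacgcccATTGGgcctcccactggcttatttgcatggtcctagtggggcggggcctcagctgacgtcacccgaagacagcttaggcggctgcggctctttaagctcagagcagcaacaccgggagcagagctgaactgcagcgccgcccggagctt
Pklr: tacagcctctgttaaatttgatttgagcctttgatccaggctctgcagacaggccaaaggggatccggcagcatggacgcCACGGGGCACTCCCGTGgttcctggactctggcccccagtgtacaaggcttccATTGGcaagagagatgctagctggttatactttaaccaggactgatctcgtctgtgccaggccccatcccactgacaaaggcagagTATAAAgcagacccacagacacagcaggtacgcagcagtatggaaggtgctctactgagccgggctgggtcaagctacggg
The Fasn window holds 3 CCAAT boxes, at positions -90, -62 and -59 from the start, the last pair overlapping on opposite strands. The Pnpla3 window holds 1 at -99 and the Acly window 1 at 38 bases past the start. The Pklr window holds a carbohydrate response element from -170 to -154, a CCAAT box at -117 and a TATA box at -31. Over both strands of 32851 promoter windows of this length, 37.4% hold a CCAAT box, 13.6% a TATA box and 0.557% the carbohydrate response element. The 10 genes have 15 windows, of which 10 hold a CCAAT box, the count to set beside the 37.4% of single windows. Counted by gene, 9 have the box in at least 1 window, Acaca being the exception, but some genes have several windows. The carbohydrate response element was found in the printed Pklr window alone. The palindromic E-box CACGTG (7.15% of all windows) and the sterol response element TCACNCCAC (1.24%) were each found for Mlxipl alone, in windows of different starts. These matches describe letters and no binding was measured.

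Fasn, the synthase gene, had values of 7.33, 7.19 and 7.24 in LKB1 WT livers and 7.68, 7.53 and 7.75 in LKB1 KO livers. In the other arm they were 7.30, 7.28 and 7.47 in RbpJk WT livers and 8.21, 8.18 and 8.13 in RbpJk KO livers. All knockout arrays lay above all controls of their arm, the sets of controls overlapped, and the RbpJk KO arrays lay above the LKB1 KO arrays. The rise in RbpJk KO livers was 1.77-fold (0.82 ± 0.10, adjusted p = 0.000598). In LKB1 KO livers the difference was 1.32-fold (0.40 ± 0.10, adjusted p = 0.0958), short of the threshold. The effects themselves differed by -0.42 (LKB1 minus RbpJk, 95% confidence interval -0.73 to -0.12, adjusted p = 0.345), so a stronger effect of RbpJk loss was not shown. Fasn varied little within groups, with a residual SD of 0.09 against a median of 0.20 over all genes.

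**Figure D1:**
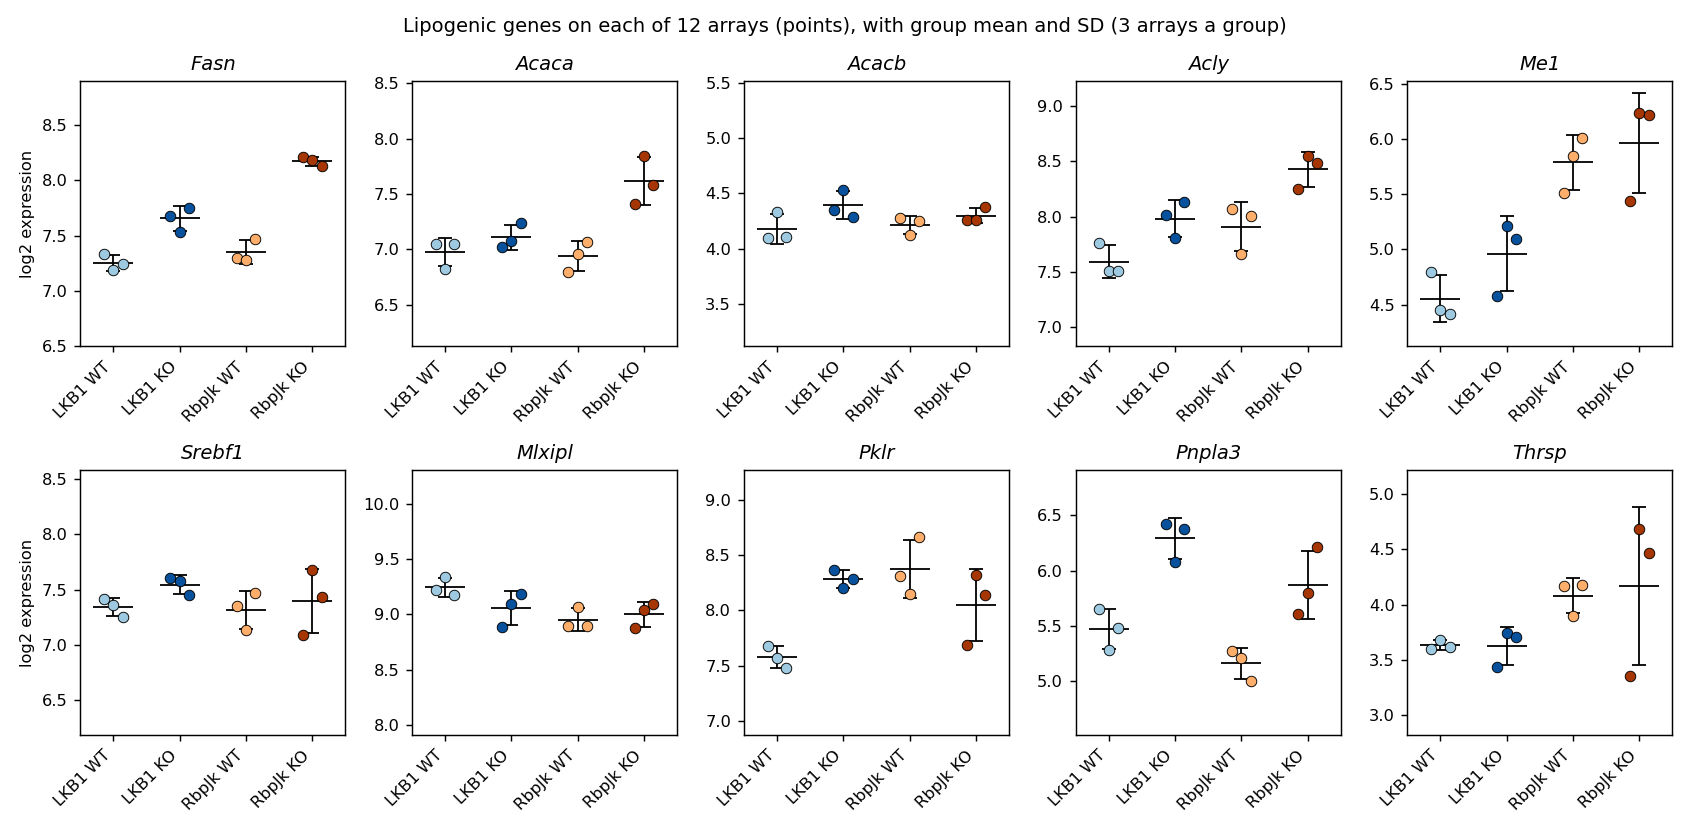
Log2 expression of the 10 lipogenic genes (y axis, each panel spanning the same number of log2 units) in the 4 groups (x axis); points are single arrays and the bars are the group mean and SD of 3 arrays. Fasn lay at 8.13 or above on the 3 RbpJk KO arrays and at 7.75 or below on the other 9, while Pklr was at 7.68 or below on the LKB1 WT arrays alone and Me1 differed between the arms.

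Acaca, the cytosolic carboxylase, was measured at 6.80, 6.96 and 7.07 in RbpJk WT livers and at 7.41, 7.84 and 7.59 in RbpJk KO livers. It rose 1.59-fold (0.67 ± 0.13, adjusted p = 0.0165), with no overlap of the groups. In the LKB1 arm the values were 7.05, 6.83 and 7.05 in controls and 7.02, 7.07 and 7.23 in knockouts, which overlapped (0.14 ± 0.13, adjusted p = 0.948). The effects on Acaca differed by -0.54 (95% confidence interval -0.93 to -0.14, adjusted p = 0.355), also short of the threshold. Without RbpJk WT 1, the array with the pancreatic transcript, the rise of Acaca was 0.60 with an adjusted p of 0.0508, and it also missed the threshold without RbpJk KO 2 (0.0605) or RbpJk KO 3 (0.0579). Its mitochondrial relative Acacb ranged from 4.10 to 4.54 over the 12 arrays, below the array medians of 4.84 to 5.01, with changes of 0.21 ± 0.14 and 0.08 ± 0.14 after loss of Lkb1 and RbpJk.

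Acly, which supplies the acetyl-CoA, was at 7.76, 7.50 and 7.50 in LKB1 WT and at 8.01, 7.80 and 8.13 in LKB1 KO livers. RbpJk WT livers had 8.07, 7.66 and 8.001 and RbpJk KO livers 8.25, 8.55 and 8.49. As for Fasn, the knockout arrays of both arms lay above their controls, yet neither difference passed alone (0.39 ± 0.14, adjusted p = 0.328, and 0.52 ± 0.14, adjusted p = 0.0781). Me1, the NADPH-producing enzyme, differed between the arms instead. It was at 4.80, 4.45 and 4.41 in LKB1 WT livers and at 5.51, 5.85 and 6.00 in RbpJk WT livers, 2.35-fold higher in the latter (1.23 ± 0.23, adjusted p = 0.0224). LKB1 KO livers had 4.58, 5.21 and 5.09 and RbpJk KO livers 5.44, 6.23 and 6.21, overlapping their controls. Me1 lay below the array median on every LKB1 WT array (medians 4.88 to 4.91) and on LKB1 KO 1 (4.84). The arms may have been processed apart, so a difference between the sets of controls and a batch cannot be told apart.

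Pnpla3, the lipid droplet gene, had the largest estimate of the 10 after loss of Lkb1. It was at 5.65, 5.29 and 5.48 in LKB1 WT livers and at 6.42, 6.07 and 6.38 in LKB1 KO livers, a rise of 1.76-fold (0.82 ± 0.17, adjusted p = 0.0332). In RbpJk WT livers it was at 5.27, 5.21 and 5.00 and in RbpJk KO livers at 5.61, 5.80 and 6.21 (1.64-fold, 0.71 ± 0.17, adjusted p = 0.0513). Knockouts lay above controls in both arms, and the effects differed by 0.11 (95% confidence interval -0.40 to 0.62). The LKB1 call was lost when any LKB1 array other than LKB1 KO 2 was left out, the adjusted p rising to 0.0564, 0.180 and 0.131 on removal of LKB1 WT 1, 2 and 3 and to 0.133 and 0.167 on removal of LKB1 KO 1 and 3.

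Pklr, the pyruvate kinase, had a pattern of its own. It was at 7.68, 7.57 and 7.48 in LKB1 WT livers and at 8.37, 8.20 and 8.29 in LKB1 KO livers, a rise of 1.63-fold (0.71 ± 0.16, adjusted p = 0.0497). RbpJk WT livers had 8.31, 8.15 and 8.66, so that the LKB1 KO values lay inside the range of the other arm's controls. RbpJk KO livers had 7.69, 8.32 and 8.14, overlapping those controls (-0.33 ± 0.16, adjusted p = 0.361). RbpJk WT livers exceeded LKB1 WT livers 1.74-fold (0.80 ± 0.16, adjusted p = 0.0303), and the direction of the LKB1 comparison is thus set against controls that were the lowest of the 4 groups. The effects of the knockouts differed by 1.03 ± 0.22 (95% confidence interval 0.56 to 1.51, adjusted p = 0.0915), past an unadjusted p of 0.05 but not the threshold. The LKB1 call was lost in 11 of 21 alternative settings, among them each of the 6 that left out an LKB1 array, with an adjusted p from 0.00562 to 0.211 over all of them. It was also lost without RbpJk WT 1 (0.0662) or RbpJk KO 3 (0.0744).

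The mRNAs of both master regulators showed small differences. Srebf1 was at 7.42, 7.36 and 7.25 in LKB1 WT, 7.61, 7.58 and 7.45 in LKB1 KO, 7.35, 7.13 and 7.47 in RbpJk WT and 7.09, 7.67 and 7.43 in RbpJk KO livers. The LKB1 KO arrays lay above their controls (0.20 ± 0.14, adjusted p = 0.869) and the RbpJk groups overlapped (0.08 ± 0.14, adjusted p = 0.830). Mlxipl was at 9.22, 9.34 and 9.17 in LKB1 WT and at 8.89, 9.10 and 9.18 in LKB1 KO livers (-0.19 ± 0.10, adjusted p = 0.744). It was at 8.89, 9.07 and 8.90 in RbpJk WT and at 8.88, 9.04 and 9.09 in RbpJk KO livers (0.05 ± 0.10, adjusted p = 0.867). Averaged over both arms, the 95% confidence interval of the knockout-to-control ratio was 0.953 to 1.28 for Srebf1 and 0.857 to 1.06 for Mlxipl, against 1.38 to 1.70 for Fasn. The array reads mRNA and not the cleaved or nuclear forms of these factors. Thrsp, at 3.35 to 4.69 and below the array medians, had estimates smaller than their SE in both arms (-0.005 ± 0.26 and 0.09 ± 0.26), and its residual SD of 0.38 was the largest of the 10.

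Counted together, 2 of the 10 (Pklr and Pnpla3) were significantly higher and 0 lower after loss of Lkb1, where 0.962% of all genes passed in either direction and 0.418% rose. In RbpJk KO livers 2 rose and 0 fell (Fasn and Acaca), where 1.68% passed and 1.12% rose. The median change was 0.30 against -0.01 over all genes in the LKB1 arm, with 8 of 10 above 0, and 0.13 against -0.03 in the RbpJk arm, with 9 of 10 above 0. Over all genes 47.4% and 45.1% lay above 0. In the RbpJk arm Acacb, Me1, Srebf1, Mlxipl and Thrsp were above 0 by less than their SE. In the LKB1 arm all 3 knockout arrays lay above the 3 controls for 5 of the 10, as they did for 7.77% of all genes. In the RbpJk arm they did so for 4 of the 10, against 8.25% of all genes. The call lists of the arms share no gene of the 10, but 0 of the 10 passed the test of the difference between the effects (0.181% of all genes passed, and 3 of the 10 had an unadjusted p under 0.05, as did 9.13% of all genes). A call in 1 arm alone does not show a difference between the arms here.

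**Figure D2:**
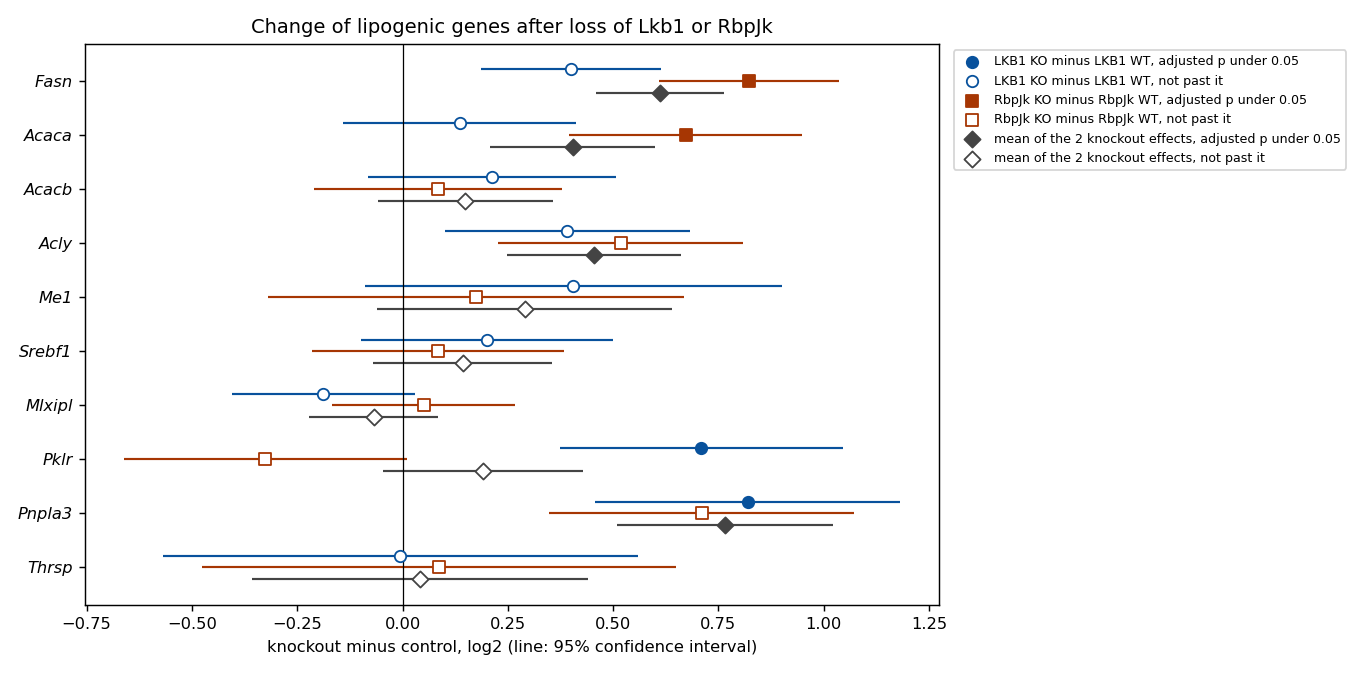
Change of each gene, knockout minus control on the log2 scale (x axis), with its 95% confidence interval from limma, for LKB1 (circles), RbpJk (squares) and the mean of both effects (diamonds); filled symbols passed an adjusted p under 0.05. Fasn, Acaca, Acly and Pnpla3 passed in the mean of both effects, while the intervals of Pklr lie on opposite sides of 0 for most of their length.

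The mean of the knockout effects, which weighs all 6 Cre-positive against all 6 Cre-negative arrays within their arms, gave narrower intervals. By limma 4 of the 10 rose on this measure and 0 fell, where 2.33% of all genes passed and 1.35% rose. With Xist class as a covariate 2 of the 10 passed, and over all genes 199 in place of 541. The 4 were Fasn (1.53-fold, 0.61 ± 0.07, adjusted p = 0.000224), Pnpla3 (1.70-fold, 0.76 ± 0.12, adjusted p = 0.00257), Acly (1.37-fold, 0.45 ± 0.10, adjusted p = 0.0199) and Acaca (1.32-fold, 0.40 ± 0.09, adjusted p = 0.0308). They include genes of citrate cleavage, carboxylation and chain synthesis, and a droplet protein. Of these, Acaca overlapped its controls in the LKB1 arm (0.14, limma adjusted p = 0.948), so its mean effect came mostly from the RbpJk arm (0.67). The other carboxylase gene, Acacb, did not pass in the mean (0.15, limma adjusted p = 0.576). Only 2 of the 10 passed when LKB1 WT 2, LKB1 WT 3, LKB1 KO 3, RbpJk KO 2 or RbpJk KO 3 was left out. The 6 that did not pass with all arrays had estimates between -0.07 (Mlxipl) and 0.29 (Me1). Between the sets of controls, 2 of the 10 were higher in RbpJk WT livers, Me1 and Pklr, where 0.699% of all genes passed and 0.332% were higher. Neither passed without LKB1 WT 2, LKB1 WT 3 or RbpJk WT 3, and 1 of the 10 did without LKB1 WT 1 or RbpJk WT 2.

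The Xist level, and with it apparent sex, moved with the knockouts. The parts of knockout and sex in these results cannot be told apart with these arrays. Values within 1 Xist class, and with that class in the model, are given here. LKB1 KO 3, the only knockout of its arm with high Xist, exceeded the mean of the 3 controls, which also had high Xist, by 0.91 for Pnpla3, 0.71 for Pklr, 0.54 for Acly and 0.50 for Fasn, and 9 of the 10 differences were above 0. The 3 RbpJk KO arrays exceeded RbpJk WT 2, the only control of that arm with low Xist, by 0.89 for Fasn, 0.77 for Acly, 0.66 for Pnpla3 and 0.66 for Acaca, and 8 of the 10 were above 0. These are values with a single array on 1 side and no test, and the share of all genes above 0 was not taken within a class. With Xist class as a covariate in the limma model, 0 of the 10 passed in the LKB1 arm. Pnpla3 then changed by 0.84 (adjusted p = 0.160) and Pklr by 0.82 (adjusted p = 0.102). In the RbpJk arm 2 passed, Fasn (0.91, adjusted p = 0.00313) and Acly (0.72, adjusted p = 0.0342), while Acaca did not (0.73, adjusted p = 0.0643).

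Individual arrays also differed across the genes as a set. RbpJk KO 1 was the lowest of its group for 9 of the 10 and the highest for Fasn. The share of all genes for which it was lowest was not taken. Within their groups LKB1 WT 1 was highest for 7, RbpJk WT 3 and RbpJk KO 2 highest for 6 each, and RbpJk WT 2 lowest for 6. RbpJk KO 1 stood at 3.35 for Thrsp against 4.69 and 4.47 on the other RbpJk KO arrays, and at 7.69 for Pklr against 8.32 and 8.14. Without RbpJk KO 1 the RbpJk change of Thrsp was 0.49 (adjusted p = 0.214), that of Me1 0.44 and that of Pklr -0.15, none past the threshold, and Pnpla3 passed (0.84, adjusted p = 0.0380). The array median of RbpJk KO 1, 4.87, lay between those of the other RbpJk KO arrays, 4.96 and 4.85.

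For each of the 4 genes called in a knockout comparison, the genes most like it were found by the root mean square difference of log2 profiles over 12 arrays, each gene being centred on its own mean. Nearest to Fasn were Fkbp11 (0.0988), Tmem97 (0.125) and Srebf2 (0.131). Srebf2 encodes the SREBP that drives cholesterol synthesis, Tmem97 a sterol-regulated protein of the endoplasmic reticulum and Fkbp11 a prolyl isomerase of that compartment. Nearest to Acaca were Snx24 (0.0912), Plce1 (0.104) and Gsap (0.122), nearest to Pklr Adamts1 (0.177), Car14 (0.177) and Dipk1c (0.180), and nearest to Pnpla3 Kl (0.192), Alpl (0.206) and Tmem98 (0.210). Among the 10 themselves the closest pairs were Acacb with Srebf1 (0.150), Fasn with Acaca (0.160) and Fasn with Acly (0.165), and the furthest was Me1 with Pnpla3 (0.831). Low distances favour genes that vary little, and these profiles are descriptions with no test.

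Over all genes 1.12% rose in RbpJk KO livers, and 0.962% passed in either direction in LKB1 KO livers. Among 13 genes that process or assist SREBPs, 2 rose and 0 fell in RbpJk KO livers. Srebf2 was at 7.67, 7.65 and 7.82 in RbpJk WT and at 8.42, 8.17 and 8.37 in RbpJk KO livers (1.53-fold, 0.61 ± 0.10, adjusted p = 0.00778). Insig1, a sterol-induced protein that holds SREBPs in the endoplasmic reticulum, was at 8.92, 8.85 and 9.70 and at 10.09, 9.94 and 10.24 (1.91-fold, 0.93 ± 0.21, adjusted p = 0.0436). In LKB1 KO livers 0 of the 13 rose and 1 fell, the NF-Y subunit gene Nfyb (-0.69 ± 0.13, adjusted p = 0.0246), whose RbpJk value was -0.47 (adjusted p = 0.111). Insig1 there was at 8.40, 8.04 and 8.75 against 8.56, 8.85 and 9.003 in controls (-0.41 ± 0.21, adjusted p = 0.725). The effects on Insig1 differed by -1.34 ± 0.30 (adjusted p = 0.116), short of the threshold. The median change of the 13 was -0.02 in the LKB1 arm and 0.19 in the RbpJk arm.

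**Figure D3:**
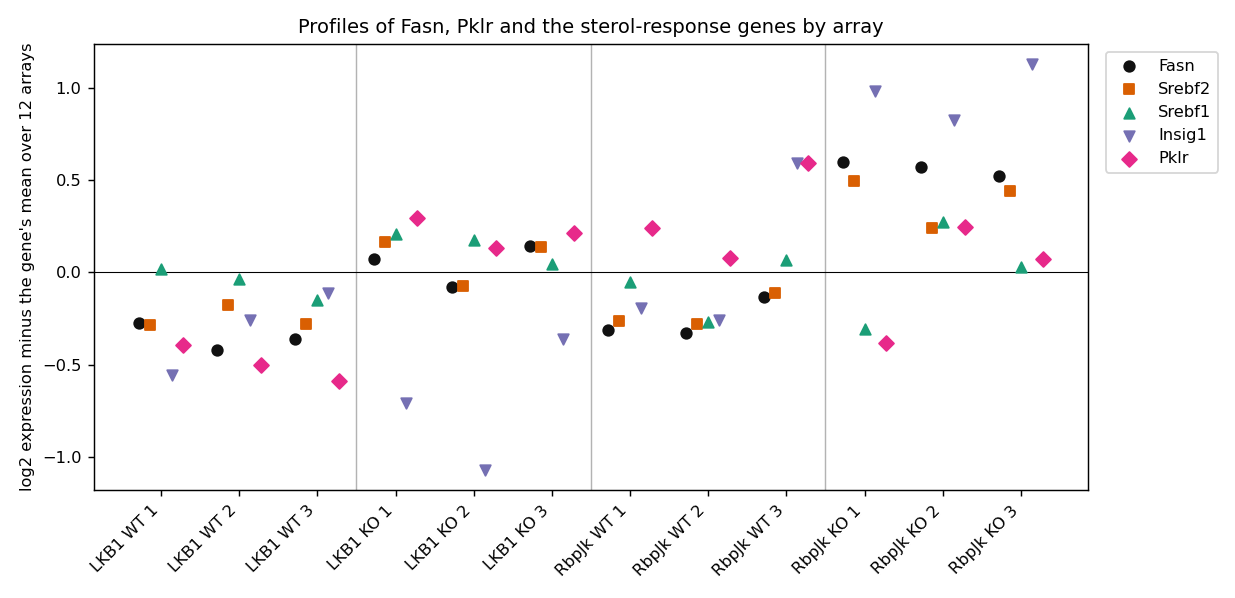
Log2 expression of Fasn, Srebf2, Srebf1, Insig1 and Pklr on each of the 12 arrays (x axis), as the difference from the gene's own mean over the arrays (y axis). The Fasn and Srebf2 points lie close together on most arrays, Insig1 lies highest on the RbpJk KO arrays and lowest on LKB1 KO 1 and 2, and Pklr is lowest on the LKB1 WT arrays and on RbpJk KO 1.

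Among enzymes that act after Fasn, Scd1 had the largest change of the listed pathway genes in both arms. Of 11 elongases and desaturases 3 rose in LKB1 KO livers and 3 in RbpJk KO livers, Scd1, Scd2 and Elovl6 in each, with 0 lower. The rest of the 11 did not pass in either arm. Over all genes 0.418% rose in LKB1 KO and 1.12% in RbpJk KO livers, which also holds for the lists below. Scd1, which makes oleate from stearate, was at 5.58, 5.47 and 5.11 in LKB1 WT and at 7.06, 8.03 and 7.37 in LKB1 KO livers, and at 6.11, 5.59 and 5.74 in RbpJk WT and 8.03, 8.31 and 8.56 in RbpJk KO livers. Its folds were 4.29 and 5.61. Scd2, a desaturase needed in newborn mice, rose 2.11-fold and 3.61-fold, and the elongase Elovl6, which extends palmitate, 2.33-fold and 2.02-fold. All 3 lay above their controls on every knockout array. The median change of the 11 was 0.18 and 0.27, and that of all genes -0.01 and -0.03.

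Of 11 genes that supply carbon to cytosolic acetyl-CoA, 1 rose in each knockout. In LKB1 KO livers it was Tkfc, which phosphorylates glyceraldehyde from fructose, at 9.09, 8.71 and 8.96 in controls and 10.18, 9.84 and 9.71 in knockouts (0.99 ± 0.13, adjusted p = 0.00194). As for Pklr, the RbpJk WT arrays (9.93, 9.95 and 10.10) were at the level of the LKB1 KO arrays, and the RbpJk change was 0.05. In RbpJk KO livers it was Acss2, which makes acetyl-CoA from acetate, at 6.00, 6.07 and 5.64 in controls and 6.93, 6.73 and 6.73 in knockouts (0.89 ± 0.15, adjusted p = 0.00666). Of 7 genes of NADPH supply 0 passed in either knockout, the values with the smallest p being 0.27 for the transketolase Tkt in LKB1 KO and 0.39 for the dehydrogenase Pgd in RbpJk KO livers.

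Of 11 genes that modify or assist the carboxylases, the Ampk subunits among them, 0 passed in either knockout. The smallest p belonged to Prkaa2, a catalytic subunit of Ampk, in LKB1 KO livers (0.34 ± 0.13, adjusted p = 0.463) and to Prkab2, a regulatory subunit, in RbpJk KO livers (0.47 ± 0.19, adjusted p = 0.270). Of 12 nuclear receptors and carbohydrate-sensing regulators, 0 passed in LKB1 KO and 3 rose in RbpJk KO livers. These were Txnip, a ChREBP target that restrains glucose uptake (1.06 ± 0.10, adjusted p = 0.000138), the hepatocyte factor Hnf4a (0.64 ± 0.10, adjusted p = 0.00475) and the repressor Klf10 (0.84 ± 0.20, adjusted p = 0.0469). Txnip was at 8.68, 8.67 and 8.92 in RbpJk WT and at 9.66, 9.82 and 9.98 in RbpJk KO livers, but at 8.76 to 8.95 in LKB1 WT and 8.82 to 8.98 in LKB1 KO livers. Its effects differed by -1.03 ± 0.15 (adjusted p = 0.0109), and it was the only gene of these lists for which the difference passed. In the LKB1 arm the smallest p of this list belonged to Bhlhe40 (0.62, adjusted p = 0.318).

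Of 17 genes of glycerolipid synthesis and storage, 1 rose in LKB1 KO and 4 rose in RbpJk KO livers, with 0 lower. The lipase inhibitor G0s2 rose in LKB1 KO livers (0.56 ± 0.12, adjusted p = 0.0398). In RbpJk KO livers the droplet proteins Cidec (3.78-fold) and Plin2 (1.75-fold) rose with the triglyceride lipase Pnpla2 (1.49-fold) and the acyltransferase Gpam (1.41-fold), which starts glycerolipid synthesis. Cidec in the LKB1 arm was at 4.95, 5.37 and 4.80 in controls and 5.73, 6.18 and 6.11 in knockouts (0.96 ± 0.21, adjusted p = 0.0523). Of 9 insulin response genes 0 passed in either arm, the values with the smallest p being -0.56 for Igfbp1 in LKB1 KO and -0.20 for Pik3r1 in RbpJk KO livers.

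The pathway genes were set against Xist level in the same way, and against the other settings. With Xist class as a covariate, 4 of the 6 calls of pathway genes in the LKB1 arm held (Scd1, Scd2, Elovl6 and Tkfc) and those of Nfyb (adjusted p = 0.0678) and G0s2 (adjusted p = 0.0549) did not. After loss of RbpJk 9 of 13 held, and those of Acss2 (adjusted p = 0.0706), Pnpla2 (adjusted p = 0.158), Gpam (adjusted p = 0.0934) and Klf10 (adjusted p = 0.226) did not. The difference between the effects on Txnip held (adjusted p = 0.0139). LKB1 KO 3 exceeded its 3 controls of the same Xist class by 1.99 for Scd1, 1.24 for Scd2, 1.57 for Elovl6 and 0.79 for Tkfc, and lay below them by -0.73 for Nfyb. The RbpJk KO arrays exceeded RbpJk WT 2 by 2.72 for Scd1, 1.96 for Scd2, 2.21 for Cidec, 1.15 for Txnip, 1.24 for Insig1, 0.73 for Acss2 and 0.67 for Srebf2. All 20 calls kept their sign in every alternative. Several of these settings cannot move an estimate, and the genes were picked because they were called.

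Leaving out any 1 LKB1 array lowered the calls over all genes in that arm from 223 to between 106 and 183. Several calls of pathway genes were lost when 1 array was left out. That of Nfyb was lost without any 1 of the 6 LKB1 arrays, and that of Elovl6 without LKB1 WT 1, LKB1 WT 2 or LKB1 KO 3 in the LKB1 arm and without RbpJk WT 2, RbpJk WT 3, RbpJk KO 1 or RbpJk KO 3 in the RbpJk arm. Pnpla2 lost its call without RbpJk WT 1, RbpJk WT 2 or RbpJk KO 3. Insig1 kept its call without RbpJk WT 3 and lost it without any other array of that arm. Over all 21 alternatives the call was lost in 10 for G0s2, 12 for Insig1, 15 for Klf10 and 16 for Gpam, arrays of the other arm among them, and in 1 for Scd1, Scd2, Cidec, Plin2, Txnip, Hnf4a and Tkfc, the methods' t-test.

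**Figure D4:**
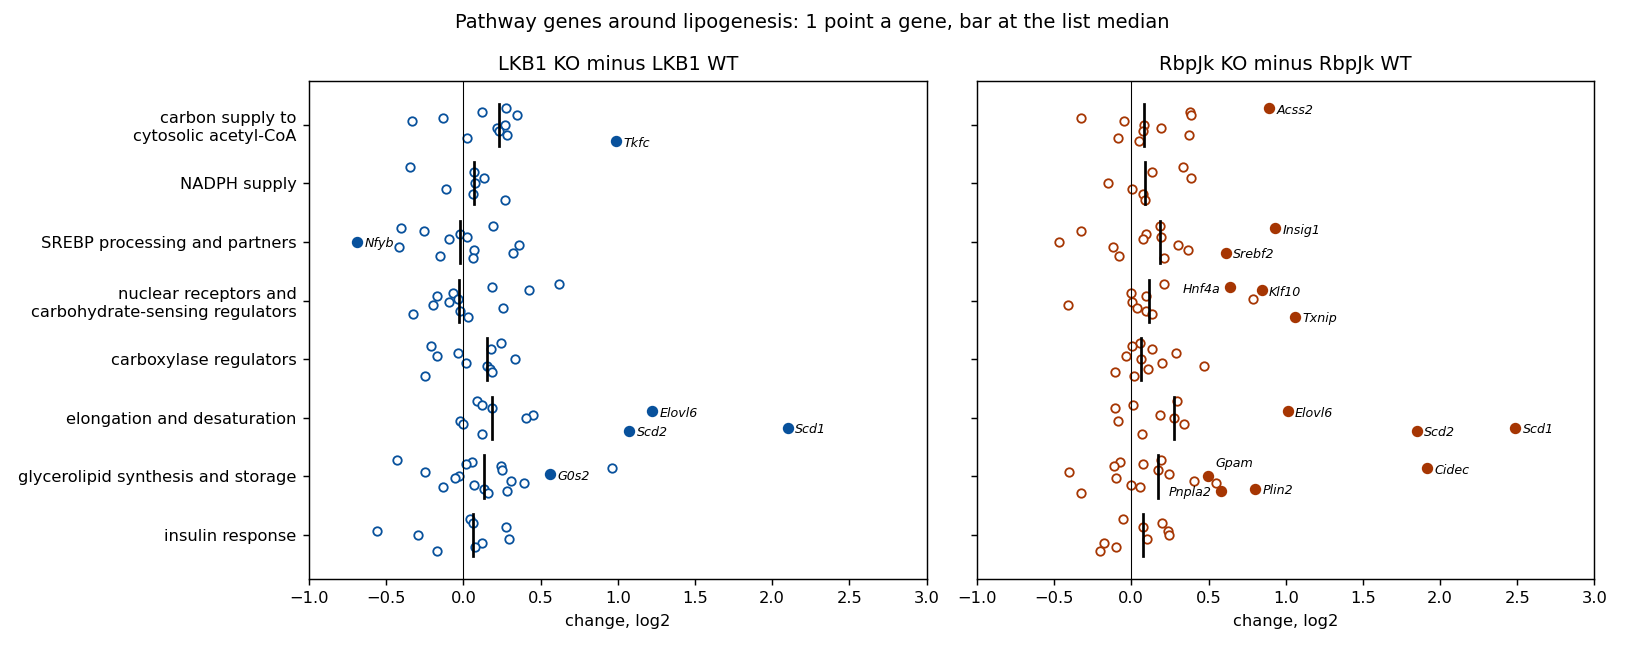
Change (x axis, log2, knockout minus control) of each measured gene of 8 pathway lists (rows) after loss of Lkb1 (left) and RbpJk (right); filled and named points passed an adjusted p under 0.05 and the black bar is the median of the list. Scd1 lies furthest to the right in both panels, at 2.10 and 2.49, and most genes of the lists lie near 0.

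Markers of other cells moved with some of these groups, and their part in the results was not tested. Summed Kupffer cell markers (8 genes) lay at 10.83 to 10.92 in LKB1 KO against 11.17 to 11.29 in LKB1 WT livers, and summed sinusoidal endothelial markers (7 genes) at 10.74 to 10.83 against 11.06 to 11.15, with 0 of either list past the threshold. Between the RbpJk groups both sums overlapped and 0 of the endothelial markers passed, but among the Kupffer cell markers Cd5l rose (0.70, adjusted p = 0.0237) and Adgre1 fell (-0.44, adjusted p = 0.0496). Summed erythroid markers (4 genes) lay at 9.92 to 10.75 in RbpJk KO and at 10.29 to 10.88 in RbpJk WT livers. All 4 had values below 0 there, Klf1 fell (-0.66, adjusted p = 0.0274) and Alas2 stood at -0.57 (adjusted p = 0.186), while in the LKB1 arm 0 of the 4 passed. Summed adipocyte markers (8 genes) lay at 8.95 to 9.21 in the LKB1 arm and at 9.68 to 10.07 in the RbpJk arm, and 0 of the 8 passed in either knockout. Me1 and Pklr were likewise higher in RbpJk WT than in LKB1 WT livers. Fabp4, which endothelium and macrophages also express, carried that sum and was higher in RbpJk WT than in LKB1 WT livers (0.94, adjusted p = 0.00305).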

How the data were processed

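Liver RNA of 12 mice, 3 in each of 4 groups, was measured on 1 array a mouse. The labels state genotype and Cre status, from which the groups come, but no date, litter or pairing, and replicates were numbered in entry order. Nothing states how the arrays relate to cultures, litters or dissections, so p-values measure the spread between these samples.

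Per the labels, RNA was extracted with Trizol and labelled by the Affymetrix whole-transcript sense-target assay. The submitters' processing notes name Partek. The methods of the study name Mouse Gene 2.0 ST arrays, Expression Console and BRB-ArrayTools, without saying which arrays this covers. The authors deposited log2 expression (1.19 to 13.0), 1 value a probe set. How these were corrected for background and normalized, and the genome build, is not given in the sources used here. Array medians were 4.84 to 5.01. Background signal compresses differences of dim probe sets. The number of arrays limits the precision. Of 25206 probe sets, 23185 had 1 gene symbol in the platform annotation, 0 several and 2021 none. All 10 genes matched RefSeq.

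A group-means model was fitted to the 12 arrays with limma 3.58.1 in R 4.3.3 (lmFit, contrasts.fit, eBayes with an intensity trend, 8 residual and 5.88 prior degrees of freedom). Every adjusted p comes from it, except where an alternative setting is named, whose own fit or test gave the value. Contrasts were each knockout against its controls, the difference and the mean of the effects, and RbpJk WT against LKB1 WT. The fit was run on simulated data with changes added to randomly drawn genes. The share recovered at the sizes of change described here is not given. Alternatives were the arrays of 1 arm alone, no trend, array weights, quantile normalization, median centring, leaving out the dimmest 25% of genes, all probe sets, the methods' t-test, Xist class (a log2 level above or below 8) as a covariate, and leaving out each array. The same settings were applied to the called pathway genes, a step added once the values were known. What is called the methods' t-test is the unpaired t-test that the study's methods give for comparing groups. Those methods name no test for the arrays.

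The 10 genes, the lists, the named genes and the Xist alternative were chosen with earlier results of these data known. All 10 genes are named, with up to 4 called genes of each pathway list and comparison by p (or 1 as a value where 0 passed), and the 3 genes with the nearest profile to each called gene. Genes named as cell markers, and members of a list named in both arms for comparison, are given beside them.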

Additional observations from a re-analysis of the deposited data

Results flagged for a closer look

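Pklr was singled out because its knockout arrays lay on average in opposite directions from their controls in the 2 arms. The difference of the effects was 1.03 ± 0.22 on the log2 scale (LKB1 minus RbpJk). It did not pass the threshold over all genes (limma, adjusted p = 0.0915). The LKB1 KO arrays were all above their controls, and the RbpJk KO arrays overlapped theirs.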

How the results depend on the processing

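No paired analysis was possible because no label links a knockout array to a control array. The direction of change held under all 21 alternatives for Fasn, Acaca, Acacb, Acly, Me1, Pklr and Pnpla3 in both arms. The estimate cannot move in settings that alter only the spread, the genes tested or the arrays of the other arm. A sign could change only with array weights, quantile normalization, median centring, the Xist covariate or omission of an array of that arm. Estimates near 0 changed sign. In the LKB1 arm Thrsp (main value -0.005) was 0.0175 with array weights, 0.0333 after quantile normalization, 0.0226 after median centring and 0.126 with Xist class as a covariate, and ranged from -0.0628 to 0.0933 when 1 array was left out. In the RbpJk arm Mlxipl was -0.00315 after quantile normalization, and leaving out 1 array gave -0.0531 to 0.237 for Srebf1 and -0.172 to 0.494 for Thrsp. The cause of these changes was not tested.

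The number of the 10 genes called in the LKB1 arm, 2 as reported, was 0 without an intensity trend, 0 by the methods' t-test and 0 with Xist class as a covariate, 3 with array weights and 3 after median centring (Fasn passing, adjusted p = 0.0263 and 0.0484), and 0 to 2 without 1 array. In the RbpJk arm, 2 as reported, it was 1 with the 6 arrays of that arm alone, 4 after median centring (Acly and Pnpla3 passing), 0 by the methods' t-test, 3 without the dimmest 25% of genes (Pnpla3 passing) and 1 to 3 without 1 array. By the methods' t-test 5 and 4 of the 10 had an unadjusted p under 0.05, as did 9.72% and 8.93% of all genes. For the difference of the effects it was 1 after quantile normalization against 0 and stayed 0 without 1 array. For the mean of the effects it was 2 with Xist class as a covariate against 4, 3 without a trend, and 2 to 4 without 1 array (2 without LKB1 WT 2, LKB1 WT 3, LKB1 KO 3, RbpJk KO 2 or RbpJk KO 3). Between the sets of controls it was 1 without a trend against 2, and 0 to 2 without 1 array (0 without LKB1 WT 2, LKB1 WT 3 or RbpJk WT 3, and 1 without LKB1 WT 1 or RbpJk WT 2). Fasn kept its call in the RbpJk arm in every setting but the methods' t-test (adjusted p = 0.222).

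Over all genes, 223 passed in the LKB1 arm, against 131 without a trend, 512 with array weights, 0 by the methods' t-test, 132 with Xist class and 106 to 235 without 1 array. In the RbpJk arm 390 passed (259 higher), against 157 for that arm alone, 259 with array weights, 590 after median centring (466 higher), 0 by the methods' t-test, 187 with Xist class and 194 to 465 without 1 array. For the mean of the effects 541 passed (312 higher), against 696 after median centring (490 higher) and 199 with Xist class. Between the sets of controls 162 passed (77 higher), against 211 after median centring (71 higher) and 70 to 272 without 1 array. For the difference 42 passed, and 15 to 57 without 1 array. Signal near background limits what can be said of Acacb and Thrsp, and of Me1 on the LKB1 WT arrays and LKB1 KO 1.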
